A study of Mus musculus with 4 samples.

Results

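Tsc1, Tsc2, Pik3r1 and Ppp2r1a encode parts of the signalling network that links growth factor receptors to cell growth. The sequence variants of these 4 genes were taken from lists made for 2 mouse cancer cell lines, as every listed variant whose annotated gene symbol was one of the 4. This gave 7 variants, of 11806 listed in 5614 genes over both lists. LM8 is an osteosarcoma line and MBT2 a bladder cancer line, whose library titles carry the number 63, and both are syngeneic with C3H/HeN mice. Cells were untreated and grown with 10% serum, MBT2 in RPMI-1640 medium and LM8 in MEM buffered with HEPES at 24 mM. From each line 2 poly(A) RNA libraries were read as pairs of 75 bases, and each line has 1 list called jointly over its libraries, so a difference between the lines has no replicate behind it and was not tested. Whether the 2 libraries of a line came from separate cultures is not stated, so p-values between them measure only the spread between these libraries, which may be technical.

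Phosphoinositide 3-kinase (PI3K) makes a membrane lipid that activates the kinase AKT, and Pik3r1 encodes its regulatory subunit, which holds the catalytic subunit inactive until a receptor is engaged. AKT inhibits the TSC complex, in which the products of Tsc1 (hamartin) and Tsc2 (tuberin) together switch off the small GTPase Rheb, the activator of the growth kinase mTOR. Protein phosphatase 2A (PP2A), which removes phosphates from AKT and many other proteins, is built on the scaffold encoded by Ppp2r1a, onto which one catalytic and one exchangeable regulatory subunit dock. Loss of TSC1 and changes in the scaffold or in the PI3K regulatory subunit are known from human tumours.

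The alternative-allele fraction is the share of reads at a site that carry the variant, here summed over both libraries of the line, with an exact (Clopper-Pearson) 95% interval. Reads come from amplified libraries and are not independent molecules, so intervals and limits cover counting error only. MBT2 had 5 variants, in all 4 genes, and LM8 had 2, in Pik3r1 and Ppp2r1a. A serine codon in place of an alanine codon in Ppp2r1a was the most deeply covered, at 32.1% of 1258 MBT2 reads. The others were a stop codon in Tsc1 at 10.3% of 39 reads, a deletion and an insertion in Tsc2 in most reads at their sites, and 3 substitutions in Pik3r1 and in the untranslated end of Ppp2r1a at 3.09% to 6.06%. None of the 7 was in both lists, against 23.2% of all LM8 variants and 19.8% of all MBT2 variants that were. A gene with no listed variant in a line can be unmutated there or have too few reads, since reads are given at listed sites only.

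The codons that carry the 4 coding substitutions are shown with 13 bases on either side, from the GENCODE M21 transcript that the annotation of the list chose. Each pair gives the reference first and then the listed allele, with the codon in capitals.
Pik3r1 G27R reference: tgacctacacctgGGGgacatactgactg
Pik3r1 G27R variant: tgacctacacctgAGGgacatactgactg
Pik3r1 L594 reference: gcggcagaagaagCTGaacgagtggctgg
Pik3r1 L594 variant: gcggcagaagaagCTAaacgagtggctgg
Tsc1 Q328* reference: tgggcagctacctCAGagtttgagttccc
Tsc1 Q328* variant: tgggcagctacctTAGagtttgagttccc
Ppp2r1a A147S reference: ctcccgcacctcgGCCtgtggtctcttct
Ppp2r1a A147S variant: ctcccgcacctcgTCCtgtggtctcttct
In all 4 the codon at the annotated number was the one the list names. A window of 29 bases around each changed base was searched in all GENCODE M21 transcripts on both strands. The reference window was found in 0 other genes and the variant window in 0 other genes, for all 4 substitutions.

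**Figure D1:**
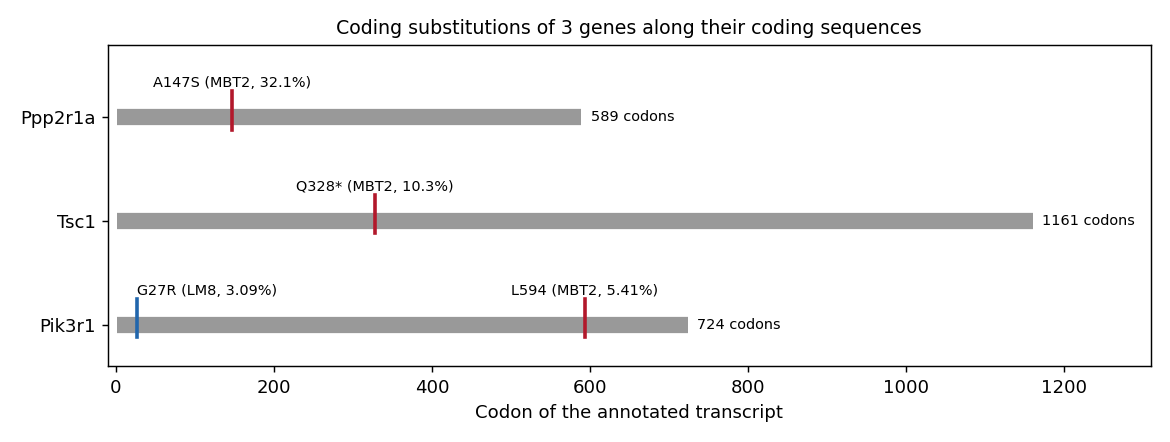
Coding substitutions along the coding sequences of Ppp2r1a, Tsc1 and Pik3r1, in codons of the annotated transcript, with the line and the alternative-allele fraction over both libraries. G27R lies at the start of the 724 codons of Pik3r1, and Q328* leaves 834 of the 1161 codons of Tsc1 at or past the stop.

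Pik3r1 had 1 missense substitution in LM8 and 1 synonymous substitution in MBT2, each in a few reads. In LM8, G27R (GRCm39, chromosome 13, position 101894089, exon 2) replaced a glycine codon by an arginine codon in 1 of 83 reads in library 1 and 4 of 79 in library 2. Both libraries held the allele, at 1.20% and 5.06%, with intervals of 0.0305% to 6.53% and 1.40% to 12.5% that overlap. The summed fraction was 3.09% of 162 reads (1.01% to 7.06%). It lay low in its list, above 17.8% of the 2802 LM8 substitutions. All 5 alternative reads were on the forward strand, against 102 of 157 reference reads. The median distance of the changed base from the read end was 1 base, a value of at most 1 being found in 32.5% of LM8 substitutions. The distance is given for alternative reads alone, and the part of strand and read end in this result was not tested.

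In MBT2, the Pik3r1 change L594 (chromosome 13, position 101823513, exon 14) kept leucine. It was in 0 of 16 reads of library 1, a count that allows 3 reads or a share of up to 18.75% (exact upper limit 20.6%), and in 2 of 21 reads of library 2. The site was the shallowest of the 7, at 37 reads and a summed fraction of 5.41% (0.661% to 18.2%). The caller counted 19 fragments at the site, 1 of them with the variant. Both alternative reads were on the reverse strand, and why fragments were fewer than reads was not examined. It was the 1 variant of the 7 with no alternative read in 1 library, a pattern at 5.77% of sites in the MBT2 list and 7.82% in the LM8 list. The caller's log10 likelihood ratio for the variant was 4.17, above that of 2.93% of the MBT2 substitutions.

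The Pik3r1 changes lie in parts of the gene that its transcripts use differently. Of 4 annotated protein-coding transcripts, 1 has codon 27 in frame: the longest, of 724 codons, which encodes the long form of the regulatory subunit, with an SH3 domain at its start. The codon of L594 is in frame in 2, as codon 594 of that transcript and as codon 324 of a transcript of 454 codons, a short form that lacks this start. Among these protein-coding transcripts the first codon is therefore in frame in the long form only, while the second is shared by both forms. Other Pik3r1 transcripts that may hold the same bases were not examined.

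Tsc1 had 1 variant, the stop-gained substitution Q328* in MBT2 (chromosome 2, position 28561846, exon 10), which turned a glutamine codon into a stop codon. It was in 3 of 27 reads of library 1 and 1 of 12 reads of library 2. Both libraries held it, at 11.1% (2.35% to 29.2%) and 8.33% (0.211% to 38.5%). The summed fraction was 10.3% of 39 reads (2.87% to 24.2%), from 39 fragments. Codon 328 is in frame, under the same number, in all 4 annotated protein-coding transcripts of Tsc1, which hold 1155 to 1161 codons. Among the 41 MBT2 substitutions that gained a stop, whose median fraction was 4.43%, it ranked 7 by fraction and was the 6th shallowest.

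The fractions that the MBT2 list holds at shallow sites fall into a low and a high band. Among the 306 MBT2 substitutions with depths within 20% of its own (32 to 46 reads), no fraction lay between 18.2% and 83.3%, and 134 of them were above 10.3%. The window of L594 had the same gap. All 4 alternative reads of Q328* were on the reverse strand, against 12 of 35 reference reads. Of the 1100 MBT2 substitutions with at most 5 alternative reads, 70.3% had them all on 1 strand. The changed base lay a median of 17 bases from the read end, where the median over MBT2 substitutions was 5. The caller's score against a strand artefact was 5, where A147S had 93, G27R 6, L594 9 and the Ppp2r1a 3′ UTR site 17. The log10 likelihood ratio of Q328* was 7.2, above that of 37.4% of MBT2 substitutions. Median base quality was 30 against 32 for the reference, and median mapping quality 60. The median fragment length was 3617 bases for alternative reads and 1097 for reference reads. The part of read strand in this result was not tested.

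**Figure D2:**
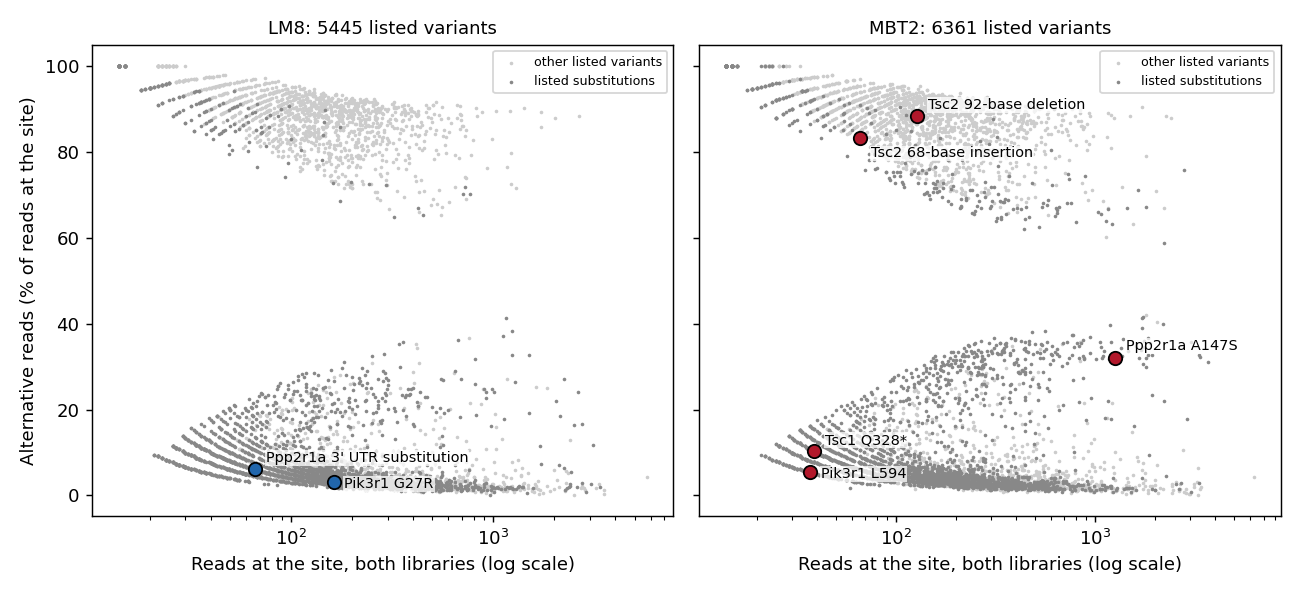
Alternative-allele fraction against depth (log scale) for all listed variants, LM8 left and MBT2 right, with the 7 variants of the 4 genes as large labelled points. Ppp2r1a A147S stands at 1258 reads, the Tsc2 changes lie in the upper band, and Tsc1 Q328* and the Pik3r1 changes lie in the lower band.

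Tsc2 had 2 variants, both in MBT2 and both insertions or deletions in most reads. Of the MBT2 genes with a listed variant, 34.1% had 2 or more. The bases are shown on the strand of the gene because they carry the features described next. In the deleted stretch the first 2 and last 2 bases are in capitals. For the insertion, the inserted bases are in capitals as they stand in the annotated Tsc2 transcript, with its 15 bases on either side. The bases that flank the insertion site itself are not shown.
Tsc2 92-base deletion: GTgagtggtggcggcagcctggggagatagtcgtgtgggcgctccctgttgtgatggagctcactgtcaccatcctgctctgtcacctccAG
Tsc2 68-base insertion: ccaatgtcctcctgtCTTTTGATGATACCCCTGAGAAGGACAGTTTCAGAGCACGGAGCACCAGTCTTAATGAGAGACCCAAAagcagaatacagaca

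The deletion (chromosome 17, position 24815927, annotated as a splice acceptor change) removed 92 bases in 49 of 57 reads of library 1 and 64 of 71 reads of library 2. The libraries were close, at 85.96% (74.2% to 93.7%) and 90.1% (80.7% to 95.9%). The summed fraction was 88.3% of 128 reads (81.4% to 93.3%). The deleted bases begin with GT and end with AG, the letters at the ends of most introns, which 33.2% of 1934 MBT2 deletions of 21 or more bases in annotated genes did. Their number equals the length of intron 38 of the annotated Tsc2 transcript, and 6 of the 22 annotated Tsc2 transcripts have an intron of that length. Deletions with the exact length of an intron of their gene made up 67.7% of the MBT2 set. The deleted bases stand in full in 3 Tsc2 transcripts, 2 of them annotated as retained introns and 1 as protein-coding. The reads counted as reference here are those that kept the stretch. The median fraction of the MBT2 deletions with both features, over all depths, was 87.1% and lay inside the interval of this one.

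The insertion (chromosome 17, position 24825328, annotated as upstream of a noncoding Tsc2 transcript by 2200 bases) was in 26 of 34 reads of library 1 and 29 of 32 reads of library 2. Both libraries held it in most reads, at 76.5% (58.8% to 89.3%) and 90.6% (74.98% to 98.0%). The caller's score against a germline variant was 9, the lowest of the 7, where Q328* had 25, L594 44 and the others 93. The summed fraction of the insertion was 83.3% of 66 reads (72.1% to 91.4%). Its 68 bases are coding sequence of Tsc2 itself: they stand in 8 of the 22 annotated transcripts, 6 of them protein-coding, and in 0 other genes. In those 6 they are bases 26 to 93 of exon 25, which is 95 bases long. Of the 221 MBT2 insertions of 21 or more bases, 70.6% stand in full in a transcript of their own gene. Their median size was 61 bases and their largest 71. The 2 Tsc2 sites thus differ. The bases lost have the length of intron 38 and stand in 3 of the 22 annotated transcripts, while the bases gained are coding sequence of exon 25. No substitution in Tsc2 was listed in either line.

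Ppp2r1a had the deepest of the 7 variants. In MBT2, A147S (chromosome 17, position 21176218, exon 4) was in 187 of 594 reads of library 1 and 217 of 664 reads of library 2. The duplicates were close, at 31.5% (27.8% to 35.4%) and 32.7% (29.1% to 36.4%). The summed fraction was 32.1% of 1258 reads (29.5% to 34.8%), and by fragments it was 32.1% of 1257. A change of this kind swaps alanine for serine, a small residue with a hydroxyl group. Codon 147 is the same in the 589-codon transcript that encodes the whole scaffold, a stack of HEAT repeats, and is absent from the other protein-coding transcript, a fragment of 143 codons.

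The reads with A147S resembled the reference reads in the measures the list gives. Of the alternative reads, 196 were on the forward and 208 on the reverse strand, against 406 and 448 of the reference reads. The changed base lay a median of 23 bases from the read end, with a median base quality of 32 against 34 for the reference and a median mapping quality of 60. Among the 754 MBT2 missense substitutions it ranked 25 by alternative reads, 20 by depth and 127 by fraction. Among the 44 MBT2 substitutions with depths within 20% of its own (1007 to 1473 reads), 17 had a higher fraction, and none lay between 39.6% and 63.2%. Of the 20 MBT2 missense substitutions at least as deep, itself included, 4 had a lower fraction, and the median of the 20 was 34.2%.

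In LM8, the Ppp2r1a variant was a substitution in the 3′ UTR (chromosome 17, position 21186158, exon 15), 425 bases past the coding sequence. It was in 3 of 31 reads of library 1 and 1 of 35 reads of library 2, at 9.68% (2.04% to 25.8%) and 2.86% (0.0723% to 14.9%). The summed fraction, 6.06% of 66 reads (1.68% to 14.8%), was near the median of the 1110 LM8 3′ UTR substitutions, 4.71%. Reference and alternative reads were all on the reverse strand, 62 and 4 of them. The median distance from the read end was 1 base, as for G27R, while the 3 MBT2 substitutions of these genes lay 11 to 23 bases from it, against 29.8% of MBT2 substitutions at 1 base or less. The alternative reads of both LM8 variants were on 1 strand, as in 69.4% of LM8 substitutions with at most 5 of them. The part of read end and strand was not tested here either. No coding change in the scaffold was listed in LM8.

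**Figure D3:**
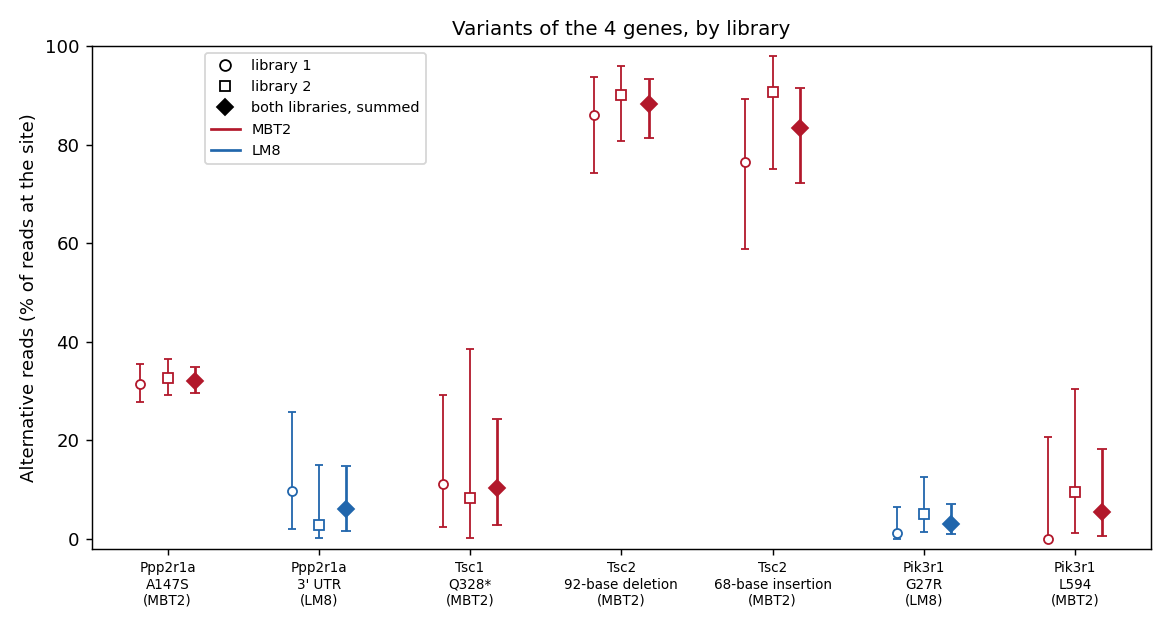
Alternative-allele fraction of each variant in library 1 (open circles), library 2 (open squares) and both libraries summed (diamonds), with exact 95% intervals, MBT2 in red and LM8 in blue. The summed interval of A147S is the narrowest of the 7 summed intervals, and the intervals of the duplicate libraries overlap for every variant shown.

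The duplicate libraries of a line were compared at each site with Fisher's exact test (two-sided), with Benjamini-Hochberg adjustment over the whole list. It called 0 of the 7 variants, and over the lists 0% of LM8 sites and 0% of MBT2 sites. At an unadjusted p under 0.05 it called 0 of the 7 as well, against 3.89% of LM8 sites and 3.76% of MBT2 sites. The lowest p among the 7 was that of the Tsc2 insertion (exact test, p = 0.188, adjusted p = 1). For A147S the exact test gave p = 0.672 (adjusted p = 1). At the shallow sites such a test can miss large differences, as the intervals show.

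The orientation of read pairs told the strand of the RNA at each site. For Tsc1 and Ppp2r1a, on the plus strand, all pairs with a recorded orientation were of 1 kind, with 38 at Q328*, 1210 at A147S and 27 at the 3′ UTR site. For Tsc2 and Pik3r1, on the minus strand, all were of the other kind, with 68 at the deletion, 59 at the insertion, 149 at G27R and 18 at L594. No pair with a recorded orientation was from RNA of the opposite strand. Such pairs were fewer than the fragments, with 27 of 66 at the 3′ UTR site and 68 of 117 at the Tsc2 deletion, and the others were not examined.

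**Figure D4:**
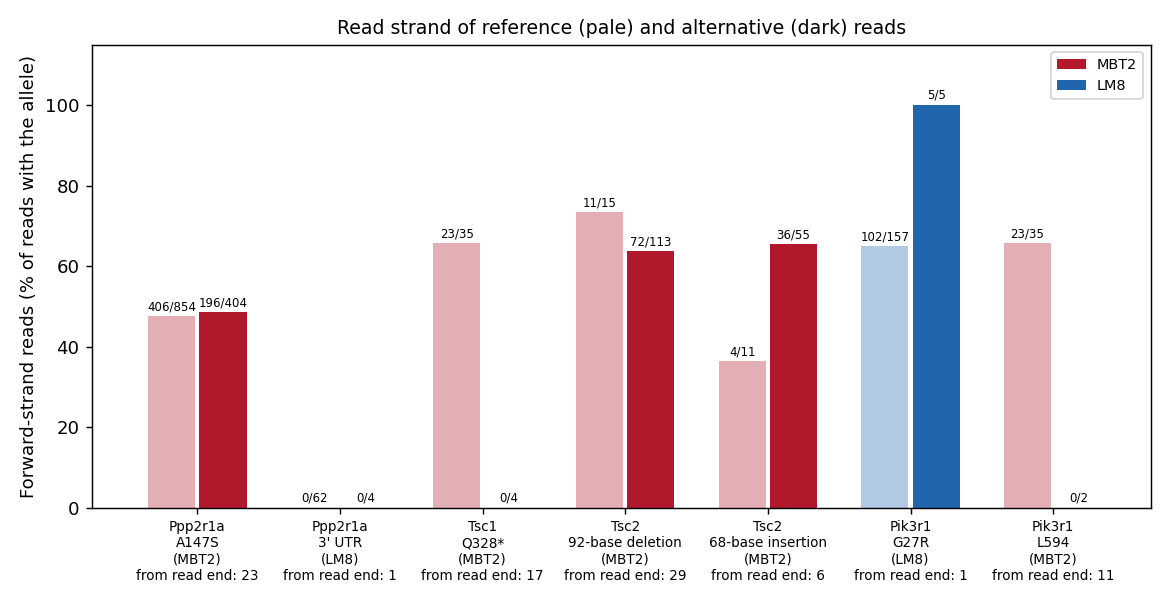
Share of forward-strand reads among reference reads (pale bars) and alternative reads (dark bars) at each site, with the reads counted above each bar and, below, the median distance in bases of the changed base from the read end. A147S is even on both strands, while the alternative reads of Q328*, G27R and L594 lie on 1 strand.

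Of the MBT2 variants in the 4 genes 3 alter the protein by annotation (A147S, Q328* and the Tsc2 deletion), against 38% of all MBT2 variants, and of the LM8 variants 1 (G27R), against 35.6%. The wider network was described from a list of 127 genes in 13 roles, which includes these 4. In MBT2, 45 of the 127 had a listed variant, 24 a protein-altering one and 14 a protein-altering one other than a deletion of 21 or more bases. In LM8 the numbers were 36, 16 and 9. All 4 genes are among the 45, Ppp2r1a, Tsc1 and Tsc2 among the 24, and Ppp2r1a and Tsc1 among the 14. In LM8, Pik3r1 is in each count and Ppp2r1a in the 36. The 4 genes were chosen with earlier results of these data known. Over all genes, 3933 had a listed variant in MBT2 and 3495 in LM8. Their share of all annotated genes was not counted, so 45 and 36 of 127 have no such share beside them. For comparison, 44% of MBT2 genes and 41.1% of LM8 genes with a listed variant had a protein-altering one, and 26.6% and 25% had one other than such a deletion. The list's 14 of 45 and 9 of 36 are near these shares, as is its 16 of 36, while its 24 of 45 in MBT2 is above 44%. None of these was tested.

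The counts of the network at higher fractions are given without a test between the lines. Of the 12 MBT2 protein-altering substitutions in the list 5 had an allele fraction of at least 20%, against 28.5% of all such MBT2 substitutions, and of the 8 in LM8 none did, against 8.81% of the LM8 ones. Besides A147S, the PP2A genes held a pair of them. Ppp2r3a, which encodes a regulatory subunit that docks on the scaffold, carried E603V (chromosome 9, position 101088514) in 47 of 63 and 53 of 79 reads, 70.4% summed (62.2% to 77.8%). Ppme1, the methylesterase that removes a methyl group from the PP2A catalytic subunit, carried G159C (chromosome 7, position 99994237) in 33 of 111 and 36 of 120 reads, 29.9% summed (24.0% to 36.2%). In both genes the libraries were close, and the interval of G159C overlaps that of A147S. The PP2A roles were singled out after their values were seen.

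Downstream of mTOR, the cap-binding translation factor gene Eif4e carried I78K in MBT2 (chromosome 3, position 138259431) in 441 of 1092 and 437 of 1105 reads, 39.96% summed (37.9% to 42.0%). Fnip1, a partner of folliculin in amino acid sensing, carried G135C in 6 of 41 and 12 of 44 MBT2 reads, 21.2% summed (13.1% to 31.4%). Eif4e was also the gene with the 1 protein-altering substitution of the list found in both lines, E20K, at 4.15% of 603 MBT2 reads and 3.70% of 216 LM8 reads. I78K and E20K are numbered in different annotated transcripts, of 132 and 185 codons. The 29 reference bases around E20K also stand in 1 other annotated gene, so its reads may be shared with a copy. The remaining MBT2 substitutions of this kind were at 2.06% to 10.3%. They lay in Rhebl1 (M146I, a relative of Rheb, with all 4 alternative reads in library 1), Tiprl (T199A, a binder of PP2A-type catalytic subunits), the PI3K catalytic subunit gene Pik3cb (E747G), a splice donor of Akt2, Ppp2r5a and Tsc1.

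The LM8 substitutions were at 2.04% to 7.55%. They lay in Seh1l (V90A) of amino acid sensing, Rhebl1 (E105G), the lipid phosphatase gene Inpp4a (S509N), Eif4e, Pik3r1, the autophagy kinase gene Ulk1 (A1050T), the S6 kinase gene Rps6kb2 (W253R) and Ppp2r5e. Rhebl1 E105G was the highest, in 4 of 53 reads (2.09% to 18.2%). Insertions and deletions of the named set were a 68-base insertion at a splice acceptor of Telo2 in LM8, in 90.7% of 86 reads, and MBT2 frameshifts in Pik3c2a, Fnip2 and Eif4g1 at 7.38%, 3.17% and 0.268% of reads. Of the 199 LM8 insertions of 21 or more bases, 18 were of 68 bases. In all, 74.9% of the 199 stand in full in a transcript of their own gene, with a median fraction of 73.1%. Insertions of that length were kept in the counts of genes, the Telo2 one among them.

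Ppp2r5a and Ppp2r5e, which encode related regulatory subunits of PP2A (the B56 family), each gained a stop from a tryptophan codon near the end, the first in MBT2 and the second in LM8. The contexts are shown because the changed codons sit in matching stretches, with the codon in capitals.
Ppp2r5a W455* reference: acgggaagagttgTGGaaaaaactagagg
Ppp2r5a W455* variant: acgggaagagttgTGAaaaaaactagagg
Ppp2r5e W447* reference: gcgagaagaactgTGGaaaaaattggagg
Ppp2r5e W447* variant: gcgagaagaactgTGAaaaaaattggagg
The 2 reference stretches are identical at 23 of 29 bases. W455* (chromosome 1, position 191085270) was in 1 of 128 and 5 of 141 MBT2 reads, 2.23% summed (0.823% to 4.79%), and W447* (chromosome 12, position 75500551) in 5 of 129 and 2 of 126 LM8 reads, 2.75% summed (1.11% to 5.57%). Their intervals overlap. The stops leave 32 of 486 and 21 of 467 codons at or past them.

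The protein-altering coding substitutions of the network were also counted by base change on the coding strand. Of the 11 in MBT2, 4 were G>T (A147S, Ppme1 G159C, Fnip1 G135C and Rhebl1 M146I), a change that made up 10.2% of 801 in the whole MBT2 list, where its median fraction was 30.1%. Of the 8 in LM8, 5 were G>A, G27R among them, against 27.4% of 657 in the whole LM8 list, where its median fraction was 5.07%. Q328* was the 1 C>T change, a type at 7.12% of the MBT2 list. The numbers are small and were not tested.

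**Figure D5:**
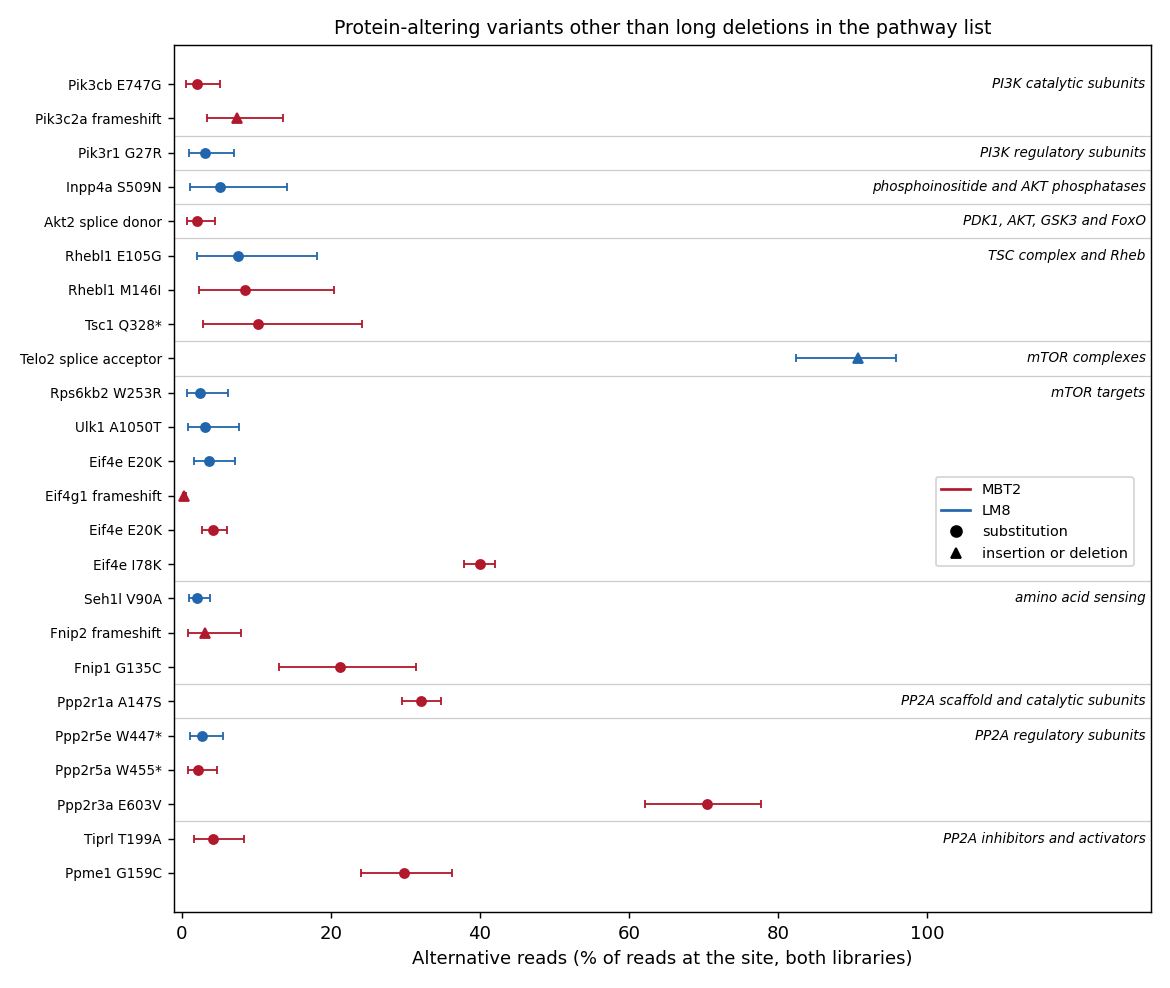
Alternative-allele fraction over both libraries, with exact 95% intervals, of every protein-altering variant other than a deletion of 21 or more bases in the 127-gene list, grouped by role, MBT2 in red and LM8 in blue. Above 20% stand 5 MBT2 substitutions, in Ppp2r3a, Eif4e, Ppp2r1a, Ppme1 and Fnip1, and the Telo2 insertion of LM8.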

How the data were processed

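RNA of 2 libraries per line was sequenced, and the deposited tables are 1 variant list per line (variant call format 4.2, build GRCm39), with reads per allele and library. Per the file headers, the authors called both libraries jointly with Mutect 2.2, with no normal sample named, kept passing records, and annotated 1 effect per variant with SnpEff 5.1d and database 105. The submitters' processing notes name bcl2fastq 2.17.1.14, cutadapt 1.9.1, STAR 2.7.9a and GATK 4.3.0. The handling of reads across splice junctions was not stated. Strain differences from the reference genome can remain in the lists.

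Samples were grouped by title. Listed sites held 571088 to 596298 reads per LM8 library and 742698 to 790762 per MBT2 library. Per variant, reads were summed over the libraries, with exact 95% intervals. Fisher's exact test compared libraries at every site, with Benjamini-Hochberg adjustment and a threshold of 0.05, and was tested on simulated data. Protein-altering effects were missense, stop or start changes, frameshifts, in-frame changes and splice sites. Transcripts came from GENCODE M21 (GRCm38), matched by identifier. Its coordinates were not used, only lengths, order and sequence. The text names every variant of the 4 genes and, in the 127-gene list, every protein-altering variant other than a deletion of 21 or more bases, at most 30 per line. The members and the list were chosen with earlier results of these data known, and 1 gene of the list is not reported here. Tests ran in scipy 1.17.1 under Python 3.11.15, tables in pandas 2.3.3 with numpy 2.4.6, and plots in matplotlib 3.10.9.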

Additional observations from a re-analysis of the deposited data

How the results depend on the processing

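Of 28 alternative values that keep both libraries and their sums, 23 stayed within 1.5 times a count or within 1 SD of the libraries. The 21 values from single libraries or their mean lie within 1 SD almost by construction and show no stability. With at least 50 reads per site MBT2 had 3 variants in the 4 genes instead of 5, since Q328* and L594 lie at 39 and 37 reads. The caller's own estimate, averaged over libraries, was 14.05% for Q328* and 12.7% for L594, for which it gave 10% in the library without an alternative read. Without deletions of 21 or more bases, 14 MBT2 and 9 LM8 genes of the 127 had a protein-altering variant instead of 24 and 16. In single libraries, fractions ranged from 31.48% to 32.68% for A147S, 2.857% to 9.677% for the Ppp2r1a 3′ UTR change, 8.333% to 11.11% for Q328*, 85.96% to 90.14% for the Tsc2 deletion, 76.47% to 90.62% for the Tsc2 insertion, 1.205% to 5.063% for G27R and 0% to 9.524% for L594. No paired analysis was possible because no test between the lines was made and the libraries of a line share 1 list. Depth limits the 2 shallowest sites most, where 1 read moves the fraction by over 2 percentage points.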

Other observations

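Among the other variants of the network, the mTOR partner gene Rptor had 2 substitutions in its 3′ UTR in MBT2 (chromosome 11, positions 119788988 and 119789805), in 23.2% of 254 reads (18.2% to 28.9%) and 22.2% of 153 reads (15.9% to 29.6%). The first was in 32 of 119 and 27 of 135 reads of the libraries and the second in 17 of 72 and 17 of 81. Rictor, a subunit of the other mTOR complex, had a 79-base deletion in coding sequence in 23.9% of 268 MBT2 reads (18.9% to 29.4%). The kinase gene Gsk3b had the same 3′ UTR substitution in both lines, in 6.76% of 148 LM8 reads and 5.32% of 94 MBT2 reads, with a median distance of 1 base from the read end in each. The transcription factor gene Tfe3 did too, in 3.50% of 143 LM8 reads and 2.92% of 342 MBT2 reads, also at 1 base from the read end. These variants were chosen after their values were seen.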
